A study of Homo sapiens with 6 samples.

Results

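The genes described here are 39 genes of cholesterol and fatty acid synthesis, 21 of a sterol branch and 18 of a fatty acid branch. They were chosen as known genes of the SREBP pathway, with earlier results of these data known. The values come from arrays of FAH-silenced melanoma cells. Shares of these and the other listed genes, set beside shares of all genes, are thus descriptions only. A probe set, the group of probes that reads 1 gene, was kept if it carried 1 gene symbol, and the brightest was kept where a symbol had several. By this rule 36 of the 39 were measured, 19 sterol and 17 fatty acid genes, among 18372 genes in all. HSD17B7 had only a probe set shared with a pseudogene, and FDFT1 and ACSL3 were not analysed here. The samples were A375 cells, an established human melanoma line, harvested 72 h after transfection. In 3 of them the siRNA was a negative control and in the other 3 it was siFAH, which targets fumarylacetoacetate hydrolase (FAH), the last enzyme of tyrosine breakdown. The series describes the 3 samples of a group as biological replicates of this 1 line, so p-values measure the spread between them, and 3 against 3 cannot give an exact permutation p below 0.1. Signals are log2 values from arrays of RNA from whole cultures, in which fewer cells of a kind and less RNA per cell cannot be told apart. Both groups carried a transfected siRNA, and they shared the line and the time. The labels give 1 name, siFAH, for the targeting siRNA, so an effect of that siRNA on other transcripts cannot be told apart from the loss of FAH. The study asked, among other questions, whether FAH silencing alters the route from citrate to fatty acids. From its arrays it reported lower ACLY, ACACA, ACACB, ME1 and SLC25A1 after FAH silencing. It also reported these mRNAs by RT-PCR, and ACLY, ACACA and ME1 protein by western blot.

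FAH itself had log2 signals of 5.48, 5.59 and 5.68 with control siRNA and 4.92, 4.60 and 4.92 with siFAH. Each siFAH array lay below each control array, a 1.70-fold lower level (adjusted p = 0.00213 from limma, difference -0.77 on the log2 scale with a standard error of 0.10). Of the lineage markers, the neural crest factor SOX10 (mean 8.56 ± 0.05 in control arrays, SD, n = 3), the calcium-binding protein S100B (7.26 ± 0.03) and GPNMB (8.25 ± 0.17) read bright. The pigment cell genes PMEL (3.88 ± 0.10), MLANA (2.90 ± 0.17) and TYR (2.95 ± 0.14) lay in the dimmest 3 of 10 equal classes of all genes by mean signal, so the defining pigment genes were near the floor of the array. At an adjusted p under 0.05 from limma, 9.86% of all genes were called, 3.48% of them all higher. None of 8 lineage markers, 5 fibroblast markers or 4 blood cell markers was called. Of 5 keratinocyte markers KRT10 alone was called, higher (0.45, adjusted p = 0.0213). The largest differences in the other marker lists were those of S100A1 (lineage, 0.33, adjusted p = 0.205), LUM (fibroblast, 0.20, adjusted p = 0.237) and PTPRC (blood cell, 0.18, adjusted p = 0.221).

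SREBPs are membrane-bound transcription factors of the endoplasmic reticulum. When membrane cholesterol is low, SCAP escorts them to the Golgi, where proteases release the active part, and INSIG proteins hold them back when sterols are plentiful. SREBP-2, the product of SREBF2, mainly drives genes that make cholesterol from acetyl-CoA by way of mevalonate, squalene and lanosterol. SREBP-1, the product of SREBF1, mainly drives genes that make fatty acids from cytosolic citrate, by way of acetyl-CoA and malonyl-CoA, and that elongate and desaturate them. Both bind sterol regulatory elements, often next to a CCAAT box bound by NF-Y.

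Promoter sequence is shown for 4 members that hold a CCAAT box, in genes that did and did not pass the test. Of these, MSMO1 and STARD4 fell, and HMGCS1 and SREBF2 were not called. Each run is the 250 bases before a RefSeq start site in GRCh38.p14, read in the direction of the gene. Capitals mark each CCAAT box, spelled CCAAT or on the other strand ATTGG, and, in SREBF2 alone, the 9 letters that match TCACNCCAC, a form of the sterol regulatory element.
MSMO1, chr4:165327419-165327668, plus strand: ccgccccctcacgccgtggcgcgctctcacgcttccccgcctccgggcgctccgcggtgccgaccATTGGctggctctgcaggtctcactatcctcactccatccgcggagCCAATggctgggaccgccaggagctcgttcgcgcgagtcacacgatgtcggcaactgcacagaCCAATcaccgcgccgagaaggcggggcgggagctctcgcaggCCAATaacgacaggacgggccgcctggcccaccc
STARD4, chr5:111512536-111512785, minus strand: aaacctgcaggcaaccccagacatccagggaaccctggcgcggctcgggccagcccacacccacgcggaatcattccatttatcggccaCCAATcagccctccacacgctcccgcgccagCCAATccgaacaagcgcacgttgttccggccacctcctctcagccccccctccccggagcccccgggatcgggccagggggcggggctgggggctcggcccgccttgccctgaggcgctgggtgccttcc
HMGCS1, chr5:43313413-43313662, minus strand: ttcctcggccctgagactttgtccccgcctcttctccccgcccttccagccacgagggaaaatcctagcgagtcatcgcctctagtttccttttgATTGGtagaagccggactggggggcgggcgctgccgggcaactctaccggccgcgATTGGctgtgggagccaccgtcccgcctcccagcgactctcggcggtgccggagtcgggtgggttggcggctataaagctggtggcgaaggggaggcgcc
SREBF2, chr22:41832855-41833104, plus strand: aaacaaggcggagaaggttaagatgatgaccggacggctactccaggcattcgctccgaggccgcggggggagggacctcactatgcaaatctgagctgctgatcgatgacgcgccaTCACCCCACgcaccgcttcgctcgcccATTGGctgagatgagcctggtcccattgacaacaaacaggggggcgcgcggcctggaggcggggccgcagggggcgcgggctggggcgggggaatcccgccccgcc

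Of the 36 measured members, 32 had such windows, and SQLE, ACAT2, FASN and HSD17B12 had none. On either strand, CCAAT was found in 25 of the 32 (78.1%), with 15 of 17 sterol genes and 10 of 15 fatty acid genes, against 40.4% of 14207 genes that were tested and had a window. Of the 6 members that fell and had a window, ACSL1, ACSS2, MSMO1 and STARD4 held it, while FADS1 and ELOVL6 did not. A gene counted if any of its windows held the match, so genes with more listed starts had more windows to match. The CCAAT of ACSL1 lay at only 1 of its 5 listed starts, and 1 window of ACSS2 held CCAAT while another did not. TCACNCCAC was found in ACSL1 and SREBF2, 2 of the 32 (6.25%), against 170 of those 14207 genes, and the ACSL1 match lay at only 1 of its 5 listed starts. A match of letters is a description of the window and says nothing of binding in these cells.

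Before the changes are read, 1 array needs naming. Control replicate 3 was the highest control array in 28 of the 36 members, 13 of 19 sterol and 15 of 17 fatty acid genes, against 40.1% of all genes. SiFAH replicate 3 was the lowest siFAH array in 18 of the 36, against 35.4% of all genes. The same 2 arrays moved with signal: for the brightest of the 10 signal classes of all genes the mean deviation from the gene's own mean was 0.073 on control replicate 3 and -0.063 on siFAH replicate 3, while the dimmest class had -0.043 and 0.037. Many members are bright, so values without control replicate 3 and after other scalings are given beside the counts of calls and of signs. Where signals of a gene are set against each other, those of the control arrays come first.

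Of the sterol and fatty acid genes, 7 fell after FAH silencing. In the sterol branch these were MSMO1, ACAT2 and STARD4, with log2 fold changes of -0.58, -0.43 and -0.30. In the fatty acid branch they were ELOVL6, FADS1, ACSL1 and ACSS2, with -0.47, -0.43, -0.36 and -0.29, and the lowest of these in size, that of ACSS2, is a 1.22-fold lower level. No member was higher, and 29 were not called at an adjusted p under 0.05 from limma over all genes. Of all genes tested, 9.86% were called, 6.38% lower and 3.48% higher, and the share of calls that were lower went from 64.7% to 53.7% after quantile normalization and 50.5% after cyclic loess. The members' 7 became 5 after either of those scalings (MSMO1, ACAT2, STARD4, FADS1 and ACSL1). They became 3 without control replicate 3, 3 without siFAH replicate 2, 2 without control replicate 2 and 2 without siFAH replicate 3. Calls over all 18372 genes fell as well in these fits, from 1811 to 727, 711, 739 and 657 in the same order. With replicate number as a block 2 were called, with 761 calls over all genes. With the methods' t-test after Benjamini-Hochberg adjustment 0 were called, with 14 calls over all genes. In that test 13 members had an unadjusted p under 0.05, as did 3934 of the 18372 genes. The study set limits of 1.2-fold and p under 0.05 on genes found by SAM. At 1.2-fold with an unadjusted p under 0.05 from limma in place of SAM, 8 members were lower, the 7 and CYP51A1. None was higher, and of all genes 7.83% were lower and 4.74% higher.

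Log2 fold changes were below 0 in 28 of the 36 members, and in 24 after quantile normalization, 23 after cyclic loess and 24 without control replicate 3, against 48.6% of all genes, and from 49.3% to 51.0% of them in those 3 other settings. The median was -0.12, against 0.0050 over all genes. In 17 members all siFAH arrays lay below all control arrays, against 18.6% of all genes, and in 2, HMGCS1 and MVD, all lay above, against 13.4%.

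**Figure D1:**
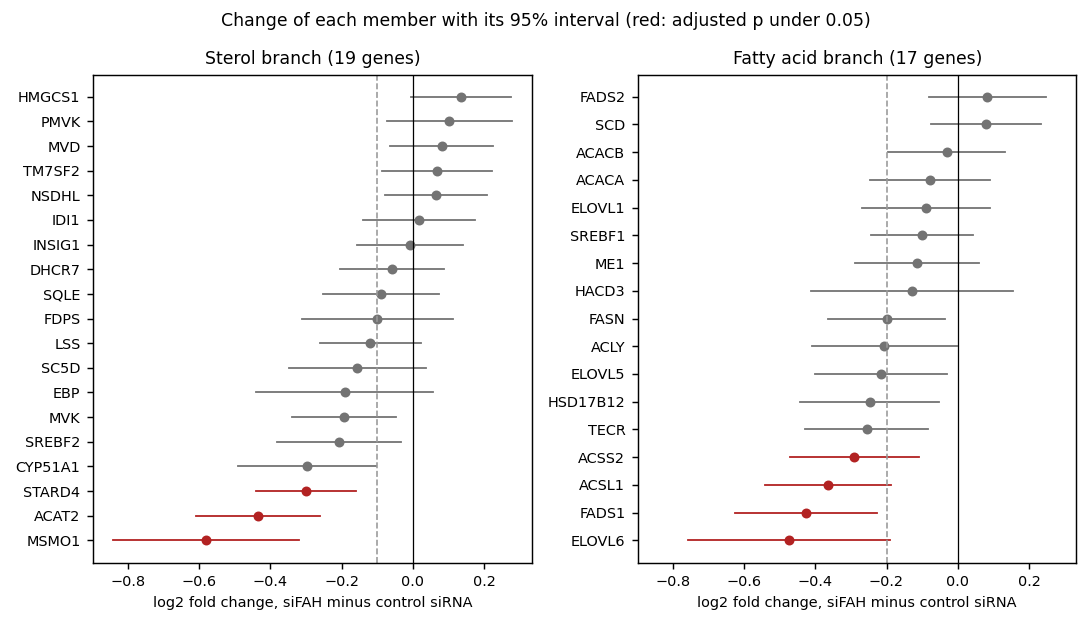
Difference of mean log2 signal between siFAH and control siRNA arrays (horizontal axis) for the measured genes of the sterol branch (left, 19 genes) and the fatty acid branch (right, 17 genes), with limma's 95% interval as a line. Red marks the 3 and 4 members with an adjusted p under 0.05, and the dashed line is the branch median, -0.10 and -0.20.

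The sterol branch begins with ACAT2, which joins acetyl-CoA units in the cytosol. ACAT2 read 7.06, 7.19 and 7.29 with control siRNA and 6.77, 6.81 and 6.66 with siFAH. The groups were well apart (difference -0.43, standard error 0.08, limma adjusted p = 0.00956), and the call held as each array was left out in turn. HMGCS1, which makes HMG-CoA, read 6.51, 6.53 and 6.53 against 6.65, 6.63 and 6.70. Its siFAH arrays all lay above its control arrays, yet the difference of 0.13 (95% interval -0.01 to 0.27, adjusted p = 0.211) was not called. The mevalonate kinase MVK had siFAH arrays all below its control arrays, with a difference of -0.19 (adjusted p = 0.0920). Its adjusted p was 0.0430 with array weights, and from 0.105 to 0.241 as each array was left out. PMVK and MVD, which act after MVK, had differences of 0.10 (adjusted p = 0.451) and 0.080 (adjusted p = 0.472). The mevalonate step genes thus had values on both sides of 0 with 1 of 5 called, where 9.86% of all genes were called.

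The next enzymes lead from isoprenoid units to lanosterol, and none of the 4 measured was called, against 9.86% of all genes. IDI1, which isomerises isopentenyl diphosphate, had 0.017 (95% interval -0.14 to 0.17), a value below 0 with array weights and without control replicate 1 or siFAH replicate 2. FDPS, which makes farnesyl diphosphate, had -0.10 (95% interval -0.31 to 0.11), and 0.0032 without control replicate 3. Its other probe sets are shared with a pseudogene, and whether a near-identical copy adds to the signal of FDPS was not tested. SQLE, which oxidises squalene, had -0.089 (95% interval -0.25 to 0.07), which was 0.00099 after cyclic loess, and LSS, which closes the ring of lanosterol, had -0.12 (95% interval -0.26 to 0.02, siFAH arrays all below control arrays).

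Of the 7 measured enzymes that turn lanosterol into cholesterol 1 was called, against 9.86% of all genes. This was MSMO1, the C4-methyl sterol oxidase. It read 5.69, 5.69 and 6.15 with control siRNA and 5.29, 5.35 and 5.16 with siFAH. The control array at 6.15 stood apart from the other 2, and the groups did not overlap. Its difference of -0.58 (standard error 0.12, adjusted p = 0.0152) was the largest among the members and was -0.43 without control replicate 3, still called. The call was lost without siFAH replicate 3 (adjusted p = 0.0623). CYP51A1, the lanosterol demethylase of the same route, read 6.61, 6.76 and 6.80 against 6.59, 6.32 and 6.37. The groups did not overlap, and its difference of -0.30 lay just outside the threshold (adjusted p = 0.0564). It was called without control replicate 1 (0.0433), without siFAH replicate 1 (0.0261), with array weights (0.0158), with trend and robust variances (0.0338) and with the dimmest genes left out (0.0319). Its adjusted p was 0.0888 after quantile normalization, 0.0961 after cyclic loess and 0.124 with the replicate block. As each array was left out, it reached 0.172. The isomerase EBP had -0.19 (95% interval -0.44 to 0.06), the desaturase SC5D had -0.16 (-0.35 to 0.04) and DHCR7, which completes 1 route to cholesterol, had -0.059 (-0.21 to 0.09), a value above 0 after quantile normalization and cyclic loess. The sterol dehydrogenase NSDHL and the reductase TM7SF2 had 0.064 and 0.067.

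Among the regulators, STARD4, a carrier that moves cholesterol between membranes, read 5.94, 5.98 and 5.97 in control arrays and 5.69, 5.65 and 5.66 in siFAH arrays. Both groups were tight, and the difference of -0.30 (standard error 0.06) was called (adjusted p = 0.0173). Its adjusted p was from 0.0629 to 0.0687 without control replicate 2, siFAH replicate 2 or siFAH replicate 3, while its value stayed between -0.31 and -0.29 under the alternatives run. SREBF2 read 7.40, 7.51 and 7.54 against 7.39, 7.27 and 7.16, so only siFAH replicate 1 came near a control array, and its difference of -0.21 was not called (95% interval -0.38 to -0.03, adjusted p = 0.123). INSIG1, an INSIG protein that is itself a target of SREBPs, read 6.33, 6.38 and 6.46 against 6.41, 6.35 and 6.39. The 2 groups overlapped fully, with a difference of -0.0076 (95% interval -0.16 to 0.14), above 0 after quantile normalization, after cyclic loess and without control replicate 3 or siFAH replicate 2.

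**Figure D2:**
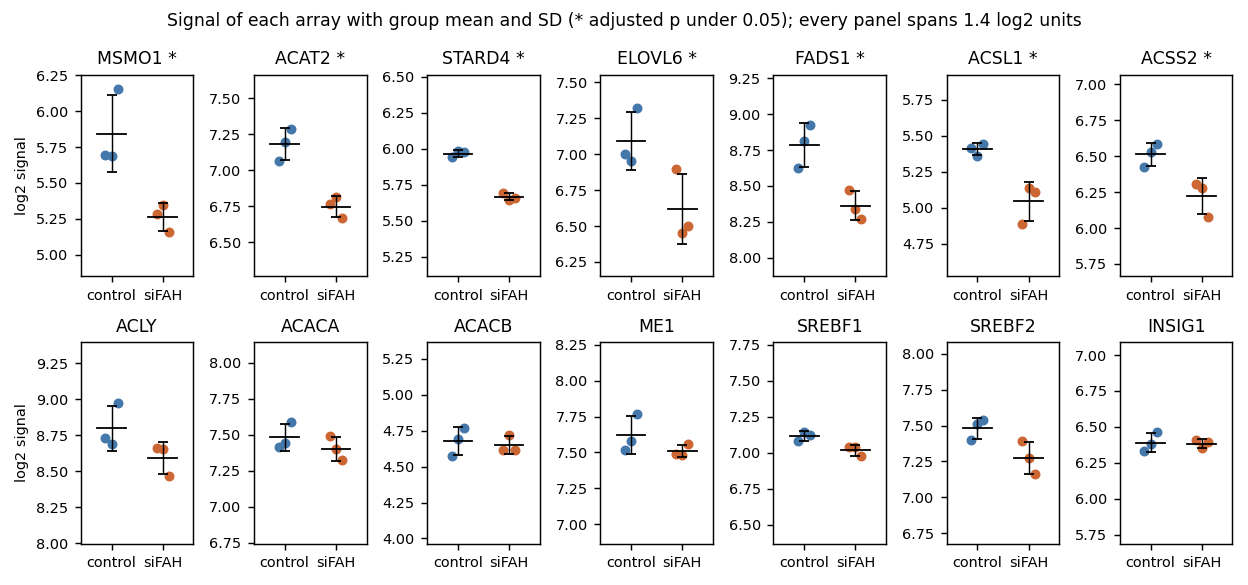
Log2 signal (vertical axis) of each array for the 7 called members (top, marked with an asterisk) and for 7 members shown whatever their result (bottom). Blue points are the 3 control siRNA arrays and orange points the 3 siFAH arrays, bars are the group mean and SD, and each panel spans the same height. In the top row no siFAH point reaches a control point, while ACACA, ACACB, ME1 and INSIG1 overlap.

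In the fatty acid branch, the enzymes that supply acetyl-CoA and malonyl-CoA come first. ACLY, which splits cytosolic citrate into acetyl-CoA, read 8.73, 8.69 and 8.98 with control siRNA and 8.66, 8.65 and 8.47 with siFAH. Its groups did not overlap, but the gap between 8.69 and 8.66 was narrow, and the difference of -0.21 (standard error 0.09) was not called (adjusted p = 0.186). ACSS2, which makes acetyl-CoA from acetate, read 6.42, 6.53 and 6.58 against 6.31, 6.28 and 6.08. Its difference of -0.29 (standard error 0.08, adjusted p = 0.0490) was just inside the threshold, with adjusted p = 0.0692 after quantile normalization and 0.0695 after cyclic loess. As each array was left out, it was called only without control replicate 1.

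The acetyl-CoA carboxylases, which make malonyl-CoA, overlapped between groups. ACACA, the cytosolic form, read 7.41, 7.44 and 7.59 against 7.49, 7.40 and 7.32. Its difference was -0.078 (95% interval -0.25 to 0.09, adjusted p = 0.559), above 0 after quantile normalization and cyclic loess. ACACB, the mitochondrial form, read 4.58, 4.69 and 4.77 against 4.61, 4.72 and 4.61, with a difference of -0.031 (95% interval -0.20 to 0.13, adjusted p = 0.831), and 0.014 without control replicate 3. FASN, the synthase that builds palmitate, read 8.50, 8.53 and 8.59 against 8.46, 8.31 and 8.26. It did not overlap between groups and had -0.20 (95% interval -0.36 to -0.04, adjusted p = 0.117). ME1, the malic enzyme that yields NADPH, read 7.52, 7.58 and 7.77 against 7.49, 7.48 and 7.56, which overlapped, with -0.11 (95% interval -0.29 to 0.06, adjusted p = 0.396).

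The enzymes that lengthen fatty acids had values below 0 in 6 of 6, against 48.6% of all genes. Of them 1 was called, against 9.86% of all genes. All 6 lay in the 3 brightest signal classes, where the median change of all genes was itself below 0, at -0.088. ELOVL6, which lengthens palmitate, read 7.00, 6.95 and 7.32 with control siRNA and 6.90, 6.45 and 6.50 with siFAH. The gap between 6.95 and 6.90 was narrow, the difference was -0.47 (standard error 0.13, adjusted p = 0.0436), and the call was lost after quantile normalization (0.0641), after cyclic loess (0.0647) and without control replicate 2 (0.0667), control replicate 3 (0.153), siFAH replicate 2 (0.136) or siFAH replicate 3 (0.146). ELOVL5, which acts on polyunsaturated chains, and HSD17B12, the reductase of the cycle, had -0.22 (adjusted p = 0.133) and -0.25 (adjusted p = 0.106), both without overlap. TECR, the last reductase of the cycle, had -0.26 (adjusted p = 0.0649), but its other probe set gave 0.046, so its probe sets disagreed. ELOVL1 had -0.090 and HACD3, the dehydratase, -0.13. The value of ELOVL1 was above 0 after quantile normalization (0.0044) and cyclic loess (0.010), and that of HACD3 was 0.053 without control replicate 3, whose signal of 8.14 stood above 7.56 and 7.63.

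Of the 3 desaturases measured, 1 was called, where 9.86% of all genes were called. FADS1, the delta-5 desaturase of polyunsaturated fatty acids, read 8.62, 8.81 and 8.93 in control arrays and 8.47, 8.34 and 8.27 in siFAH arrays. All siFAH arrays were lower (difference -0.43, standard error 0.09, adjusted p = 0.0176), with adjusted p = 0.0646 without control replicate 3, 0.0652 without control replicate 2, 0.0617 without siFAH replicate 2 and 0.0713 without siFAH replicate 3. FADS2, the delta-6 desaturase that lies beside FADS1 in the genome, read 5.87, 6.06 and 6.06 against 6.09, 6.04 and 6.11. It overlapped between groups, with a difference of 0.083 (95% interval -0.08 to 0.25, adjusted p = 0.517). SCD, which makes oleate, read 8.79, 8.78 and 8.80 against 8.91, 8.92 and 8.77, and had 0.079 (95% interval -0.07 to 0.23, adjusted p = 0.506). The difference between FADS1 and FADS2 was not tested.

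ACSL1, which activates long-chain fatty acids to acyl-CoA, read 5.42, 5.36 and 5.45 with control siRNA and 4.89, 5.13 and 5.11 with siFAH. It fell (difference -0.36, standard error 0.08, adjusted p = 0.0204), with adjusted p = 0.0567 without control replicate 2 and 0.0704 without control replicate 3. SREBF1 read 7.08, 7.15 and 7.12 against 7.04, 7.04 and 6.98, so each siFAH array lay below each control array, by little. Its difference of -0.10 was not called (95% interval -0.24 to 0.04, adjusted p = 0.360).

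The 2 branches were then set side by side. The sterol branch had a median log2 fold change of -0.10, with 3 of 19 genes lower (15.8%), and the fatty acid branch had -0.20, with 4 of 17 lower (23.5%), where 6.38% of all genes were lower. The order of these counts turned with the setting: 3 sterol and 2 fatty acid genes were called after quantile normalization or cyclic loess, 3 and 0 without control replicate 3, 2 and 1 without siFAH replicate 2, and 2 and 0 without control replicate 2 or with replicate number as a block. Below 0 were 13 of the 19 and 15 of the 17, against 48.6% of all genes. The medians were -0.025 and -0.11 after quantile normalization, -0.024 and -0.090 after cyclic loess, and -0.030 and -0.12 without control replicate 3. The difference between the medians, 0.099, was 0.028 when all probe sets of a gene were averaged, since the disagreeing probe set of TECR then moved the fatty acid median to -0.13.

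Per array, the mean deviation of the sterol genes from their own means was 0.012, 0.038 and 0.13 with control siRNA and -0.034, -0.070 and -0.076 with siFAH. That of the fatty acid genes was 0.014, 0.056 and 0.20 against -0.027, -0.095 and -0.15. Each branch mean lay below 0 on every siFAH array, and control replicate 3 stood highest in both. The sterol mean minus the fatty acid mean was -0.0021, -0.018 and -0.070 in control arrays and -0.0070, 0.025 and 0.072 in siFAH arrays. These values overlapped between groups, and no test of the branches against each other was made.

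**Figure D3:**
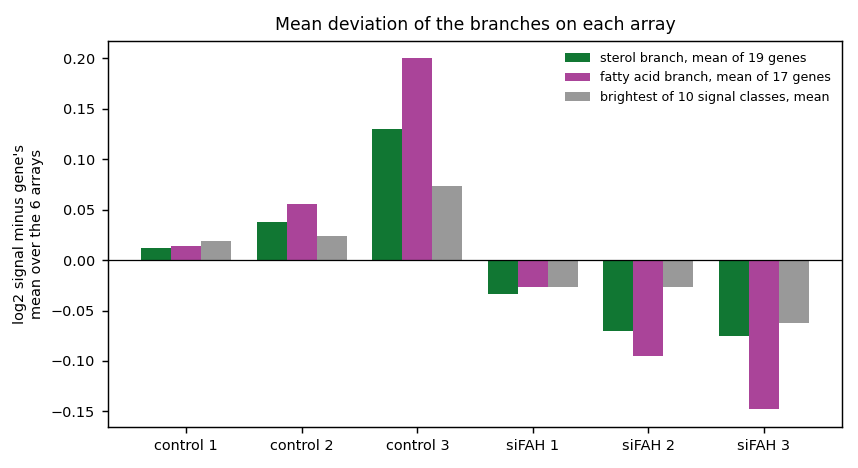
Mean deviation of log2 signal from each gene's mean over the 6 arrays (vertical axis), on each array (horizontal axis), for the sterol branch (green), the fatty acid branch (purple) and the brightest of 10 signal classes of all genes (gray). Control 3 has the highest bars, 0.13, 0.20 and 0.073, and the siFAH arrays are below 0 in all 3 sets.

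Signal level moved with the changes in all genes as well. The median change of all genes was 0.048 in the dimmest signal class and -0.11 in the brightest, and the share called lower was 0.327% and 18.9%. Of the members, 23 lay in the 3 brightest classes (10 sterol and 13 fatty acid genes), and 3 of these were lower, ACAT2, ELOVL6 and FADS1, against 14.1% of all genes in those classes. The median of the 23 was -0.13, against -0.088 for those genes, and in 11 of the 23 all siFAH arrays lay below all control arrays, against 38.5% of those genes. The other 13 members held 4 lower genes, MSMO1, STARD4, ACSS2 and ACSL1, or 30.8%, against 4.78% of all genes in the 4 classes that hold these members. The median of the 13 was -0.12, against 0.014 for the genes of those 4 classes. The part of signal level in the members' values was not tested.

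**Figure D4:**
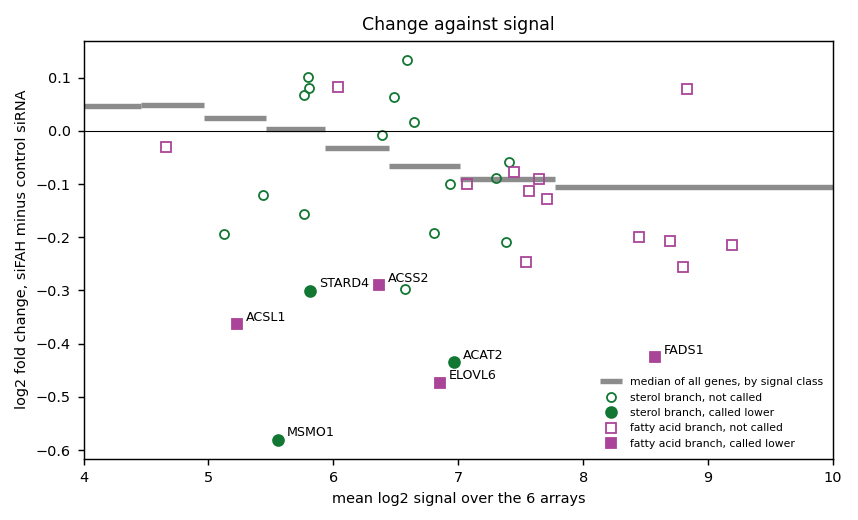
Log2 fold change, siFAH minus control siRNA (vertical axis), against mean log2 signal over the 6 arrays (horizontal axis) for the sterol (green circles) and fatty acid (purple squares) members, filled where called lower. Gray bars give the median of all genes in each signal class from a signal of 4 up, which falls to -0.11 in the brightest class. The 7 called members lie below the bar of their own class, with differences from it of -0.26 (ACSS2) to -0.58 (MSMO1).

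Of 66 other genes that act next to the members, in 6 lists, 57 were measured, and 9 were lower and 2 higher, where 6.38% of all genes were lower and 3.48% higher. Of 5 genes of SREBP processing none was called, and SCAP had -0.019 (adjusted p = 0.902) and the Golgi protease MBTPS1 -0.16 (adjusted p = 0.268). Among 13 genes of sterol efflux, storage and transport, SOAT1, which esterifies cholesterol for storage, fell (-0.45, standard error 0.07, adjusted p = 0.00597), as did NPC1, which exports cholesterol from lysosomes (-0.49, standard error 0.11, adjusted p = 0.0260). LIPA, which frees cholesterol from lysosomal esters, rose (0.36, standard error 0.09, adjusted p = 0.0276). The call of SOAT1 held as each array was left out, that of NPC1 was lost without control replicate 3, siFAH replicate 2 or siFAH replicate 3 (adjusted p from 0.0588 to 0.0975), and that of LIPA was lost without any array but control replicate 3 (0.0502 to 0.0908). The efflux pumps ABCA1 and ABCG1, targets of LXR, read dim and were not called (-0.013 and 0.088).

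For the lists that follow, the shares of all genes were again 6.38% lower and 3.48% higher. Of 21 other fatty acid enzymes and regulators, 2 were lower (9.52%), near the share of all genes. ELOVL2, which lengthens polyunsaturated chains, read 5.84, 5.79 and 5.88 with control siRNA and 5.40, 5.50 and 5.20 with siFAH (difference -0.47, standard error 0.08, adjusted p = 0.00944), and its call held as each array was left out. ACSS3, a mitochondrial acyl-CoA synthetase of short chains, had -0.54 (standard error 0.12, adjusted p = 0.0203), called without control replicate 1 or siFAH replicate 2 but not without any other array (0.0532 to 0.0657). Of 8 genes that use isoprenoid units, GGPS1, which makes geranylgeranyl diphosphate, rose (0.28, adjusted p = 0.0404). DHDDS, for dolichol, and FNTA, a farnesyltransferase subunit, fell (-0.47 and -0.25, adjusted p = 0.0309 and 0.0455). The calls of GGPS1 and FNTA were lost without any 1 array (adjusted p from 0.0629 to 0.139 and from 0.0676 to 0.162), that of FNTA also after quantile normalization (0.0868) and cyclic loess (0.0916). That of DHDDS was lost without control replicate 2 or 3 or siFAH replicate 2 or 3 (0.0611 to 0.104). Of 6 genes of citrate and NADPH supply, IDH1, a cytosolic source of NADPH, fell (-0.51, adjusted p = 0.00548), and its call held as each array was left out. PGD of the pentose phosphate pathway fell too (-0.30, adjusted p = 0.0422), a call that held without control replicate 1 but not without any other array (0.0565 to 0.137), nor after quantile normalization (0.0908) or cyclic loess (0.111). The citrate carrier SLC25A1 had -0.00017 (adjusted p = 0.999). Of 4 other sterol enzymes, LBR, a sterol reductase of the nuclear membrane, was lower (-0.32, adjusted p = 0.0259). Its call was lost after quantile normalization (0.0735) and cyclic loess (0.0880), and without control replicate 1 or 3 or siFAH replicate 1 or 2 (0.0513 to 0.0886).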

How the data were processed

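RNA of 6 A375 samples was read on Affymetrix Human Gene 1.0 ST arrays. The deposited values are log2 signals that the authors made by RMA with global scaling. The RMA version is not given in the sources used here, and no other column of sample values was present (0). Of 28829 probe sets, 19291 carried 1 gene symbol, 1735 several and 7803 none in the platform annotation, which gave 18372 genes, the brightest probe set standing for each. Groups came from the labels.

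Differences, siFAH minus control, were fitted over all genes with limma 3.58.1 in R 4.3.3 (4 residual and 6.523 prior degrees of freedom), with Benjamini-Hochberg adjustment over all 18372 genes and a threshold of 0.05. The design was checked on simulated data. The number of arrays limits the precision. SAM, which the study used, was not run, since its p comes from rearranged labels. Members and lists were chosen with earlier results of these data known. Named were FAH, every member, and of each neighbouring list the called genes and the largest change; SCAP, ABCA1, ABCG1, SLC25A1 and the lineage markers were named after their values were seen, as were the printed promoters. Those came from RefSeq (GRCh38.p14). Alternatives were 3 other scalings, a filter on dim genes, other variance models, array weights, the methods' t-test, the mean of probe sets, a replicate block and leaving out each array. Plots used matplotlib 3.10.9 and Python 3.11.15.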

Additional observations from a re-analysis of the deposited data

How the results depend on the processing

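The 7 called members had values below 0 under all 15 alternatives. ACAT2 was called under 14 of them, MSMO1 13, ACSL1 11, STARD4 10, FADS1 9, ELOVL6 7 and ACSS2 6. Calls over all genes, 1811, were 2913 with array weights and 14 with the methods' t-test after Benjamini-Hochberg adjustment, which called 0 members and 0 of the neighbouring genes. At 1.2-fold with an unadjusted p under 0.05, that t-test called 7 members lower and 0 higher, against 1195 and 646 of all genes. An unadjusted p under 0.05 in it was found for 13 members and for 3934 of the 18372 genes. The sterol and fatty acid medians were -0.025 and -0.11 after quantile normalization and -0.024 and -0.090 after cyclic loess. The difference of the medians was 0.028 with the mean of probe sets. As each array was left out, calls over all genes went from 657 to 1845, members called from 2 to 8, neighbouring genes called from 4 to 9, the sterol median from -0.14 to -0.030, the fatty acid median from -0.24 to -0.12 and their difference from 0.034 to 0.15. With the replicate block 761 genes, 2 members (MSMO1 and ACAT2) and 4 neighbouring genes were called. Each gene's deviations from its group mean were compared between same-numbered control and siFAH samples. These deviations had correlations of -0.16, -0.089 and -0.27, so the numbers were not taken as pairs.

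Of 735 values over 49 genes, 611 kept direction and call, 97 lost the call, 10 gained it and 17 changed sign, none of them in a called gene. After quantile normalization these were DHCR7 (0.021), INSIG1 (0.040), ACACA (0.0023) and ELOVL1 (0.0044), and after cyclic loess SQLE (0.00099), DHCR7 (0.034), INSIG1 (0.041), ACACA (0.016) and ELOVL1 (0.010). IDI1 (0.017) was -0.0031 with array weights and went from -0.024 to 0.058 as each array was left out. Over the same 6 fits INSIG1 went from -0.038 to 0.028, FDPS from -0.16 to 0.0032, ACACB from -0.082 to 0.014 and HACD3 from -0.23 to 0.053. The causes were not tested.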
